A study of Mus musculus with 6 samples.

Results

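CpG methylation was followed here at the annotated starts of 3 imprinted genes, Gnas and its antisense partner Nespas on mouse chromosome 2 and Grb10 on chromosome 11. Every CpG between the outermost annotated ends of these genes, with 5 kb on each side, was taken into windows of 500 bp, and each annotated start was kept apart from the others of its gene. This gave 389 windows, 152 at Gnas-Nespas and 237 at Grb10, of 5267565 windows on chromosomes 1 to 19 and X. An observation is 1 CpG covered by 1 read, and the level of a region is the percentage of its observations that were methylated. A region was tested where every library held at least 40 observations, as 33 windows of Gnas-Nespas and 11 of Grb10 did, of 173282 windows in all. The annotation holds 28 start positions of the 3 genes in 17 clusters, and 21 of them were tested (14 of 16 for Gnas, 3 of 3 for Nespas, 4 of 9 for Grb10), of 57128 starts in all.

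The study sequenced bisulfite-treated DNA of mouse pluripotent stem cells in 3 groups of 2 libraries. Advanced pluripotent stem cells (ASCs) were derived from blastocysts through an intermediate line, from which they were moved to medium with Activin A, BMP4, the Wnt agonist CHIR99021 and LIF. Embryonic stem cells (ESCs) grew in 2i/LIF, which keeps them naive. Epiblast stem cells (EpiSCs) stand for the primed state of the epiblast after implantation. All 6 libraries carry the labels 129S2/SvPasCrl and wild type, and the study describes the sequenced cells as female. The cell type label is the same in all 6, so the groups rest on the sample titles. The study calls the 2 libraries of a group biological replicates but does not say whether they are separate lines, and its account of the derivation names crosses of mixed background. How a line was made and the medium it grew in cannot be told apart from its group. The libraries held between 63716740 and 74802554 CpG reads, a mean coverage of 3.03 to 3.55 reads per listed CpG, and library-wide levels of 17.9 and 18.2% in ESCs, 59.8 and 60.2% in ASCs and 81.0 and 80.2% in EpiSCs. The statements below therefore rest on sums over regions.

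Imprinted genes are expressed from the maternal or the paternal copy, and the choice follows methylation laid down differently in egg and sperm. At a stretch where only the maternal or only the paternal copy carries methyl groups, sequencing that does not separate the copies gives an intermediate level. Gnas encodes the stimulatory G protein alpha subunit and has several alternative first exons. The first is that of Nesp, which encodes the neuroendocrine secretory protein NESP55 and whose promoter gains methylation on the paternal copy after fertilisation. The next is that of Gnasxl, which encodes the long form XL alpha s. It lies beside the start of the noncoding antisense transcript Nespas, in a stretch methylated on the maternal copy already in the egg. Exon 1A starts a transcript from the paternal copy and is methylated on the maternal copy, also from the egg. Exon 1 of the major Gnas transcript, just beyond it, is unmethylated on both copies. Grb10 encodes an adaptor protein that restrains growth factor signalling. Its main promoter is unmethylated on both copies, and an island further into the gene, beside the start used in neurons, is methylated on the maternal copy. The deposited values do not separate the copies, so the levels below are sums over both.

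Sequences of GRCm38 from the stretch beside Nesp and from the 3 stretches with egg-derived marks are shown here, since the comparisons below turn on them. In the Nespas and exon 1A lines the capitals mark TGCCGC or its reverse complement GCGGCA, the hexamer bound, when methylated, by the imprint-protecting factor ZFP57. The Nesp line holds none. In the last the capitals mark the octamer CACGCGCC. Each lies outside annotated exons and is given on the plus strand.
Nesp, chr2:174285835-174286134, in an intron of Gnas: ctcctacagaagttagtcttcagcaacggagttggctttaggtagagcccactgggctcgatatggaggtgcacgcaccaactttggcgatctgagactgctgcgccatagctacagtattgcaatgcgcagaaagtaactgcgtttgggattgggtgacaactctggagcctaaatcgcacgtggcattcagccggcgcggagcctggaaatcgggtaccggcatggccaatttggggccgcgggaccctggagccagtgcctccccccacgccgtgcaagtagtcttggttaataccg
Nespas, chr2:174295657-174295956, upstream of Nespas-203: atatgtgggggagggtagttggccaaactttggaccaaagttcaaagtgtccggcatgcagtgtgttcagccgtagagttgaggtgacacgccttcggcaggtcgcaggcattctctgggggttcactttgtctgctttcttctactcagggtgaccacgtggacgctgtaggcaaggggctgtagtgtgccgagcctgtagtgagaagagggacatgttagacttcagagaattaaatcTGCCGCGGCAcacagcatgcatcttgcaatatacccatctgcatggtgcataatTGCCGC
Exon 1A, chr2:174327229-174327528, upstream of Gnas-212: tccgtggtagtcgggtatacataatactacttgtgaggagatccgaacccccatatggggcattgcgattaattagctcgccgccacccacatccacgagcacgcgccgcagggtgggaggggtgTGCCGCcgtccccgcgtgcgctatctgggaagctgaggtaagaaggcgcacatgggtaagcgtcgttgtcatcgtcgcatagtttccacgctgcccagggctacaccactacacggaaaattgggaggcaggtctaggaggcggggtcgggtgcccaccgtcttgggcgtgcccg
Grb10, chr11:12026325-12026624, upstream of Grb10-209: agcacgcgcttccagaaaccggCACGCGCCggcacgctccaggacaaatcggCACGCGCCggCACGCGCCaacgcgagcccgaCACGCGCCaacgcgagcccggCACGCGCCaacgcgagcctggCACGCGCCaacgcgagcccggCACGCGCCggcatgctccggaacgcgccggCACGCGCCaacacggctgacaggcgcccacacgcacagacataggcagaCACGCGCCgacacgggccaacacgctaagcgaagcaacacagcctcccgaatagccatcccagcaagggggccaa
The Nesp bases held 19 CpG and 0 hexamers, those beside Nespas 11 CpG and 3 hexamers, those beside exon 1A 27 CpG and 1 hexamer, and those beside Grb10-209 49 CpG and 0 hexamers. The Grb10 bases are a tandem repeat in which the octamer, picked after the sequence was seen, occurs 9 times. The 500 bp window at the start of Grb10-209 holds 11 copies, the most of any of the 173282 tested windows, of which 1.13% hold at least 1.

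The stretches at 4 of the alternative starts were methylated in EpiSCs and nearly unmethylated in ESCs, and ASC levels differed among them. In ASCs the stretch at Nespas and Gnasxl stood at 26.3 and 28.6% and that of Grb10 at 21.0 and 18.1%, whereas the stretch at Nesp stood at 5.28 and 2.22% and that of exon 1A at 3.46 and 3.69%. A window was called where its adjusted p was under 0.05 and the levels of the groups differed by at least 20 percentage points. Each stretch is a run of at least 2 neighbouring tested windows, with at most 1 untested window in between, that were called in a comparison or intermediate, and 7 such runs were found, 5 at Gnas-Nespas and 2 at Grb10. A window was intermediate where all 4 ASC and EpiSC libraries lay between 20 and 80% and both ESC libraries lay under 20%. The p-values are from a quasi-binomial fit with limma moderation and are adjusted over all tested windows or, for starts, over all tested starts. Of all tested windows, 68.4% were called for ASCs above ESCs, 81.2% for EpiSCs above ESCs and 51.8% for ASCs under EpiSCs, and the counts over a whole locus stand beside these shares. Counts within a stretch are a description, since its windows were chosen for being called or intermediate.

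Exon 1A, from which a noncoding transcript of the paternal copy starts, was the stretch where ASCs and EpiSCs lay farthest apart. It spans chr2:174326501-174329500, covers 204 CpG in 6 tested windows and holds the starts of Gnas-202, Gnas-212, Gnas-217, Gnas-218, Gnas-219 and Gnas-221. Of these, Gnas-202 is annotated as protein coding and the rest as processed transcripts. The level was 1.45 and 2.60% in ESCs (2.03% ± 0.811, SD, n = 2), 3.46 and 3.69% in ASCs (3.58% ± 0.157, SD, n = 2) and 64.8 and 64.5% in EpiSCs (64.6% ± 0.219, SD, n = 2). Both ASC libraries lay just above the ESC libraries and far under the EpiSC libraries. The 95% Wilson intervals, which cover counting error only, reached from 2.45 to 5.18% over the ASC libraries and from 61.5 to 67.6% over the EpiSC libraries. All 6 windows were called higher in EpiSCs, against ESCs (adjusted p from 3.07e-07 to 1.65e-06) as against ASCs (adjusted p from 1.1e-06 to 1.3e-05). Over the 300 bases printed for exon 1A the level was 0.909 and 0.629% in ESCs, 0.0 and 1.79% in ASCs and 62.6 and 69.1% in EpiSCs. None of the 6 windows was called between ASCs and ESCs by the quasi-binomial fit, by Fisher's exact test or by limma on log ratios. In 2 of them the ASC level was higher at an unadjusted p under 0.05, with differences of 6.09 and 2.88 points (adjusted p = 0.0289 and 0.0173), under the 20-point minimum. The minimum applied to each of these tests and none of the 6 windows reached it, so the other tests add no separate support. The window at chr2:174326501-174327000, inside an intron at the edge of the stretch, had the largest difference between ASCs and EpiSCs of the tested windows of the locus. Its level was 14.9 and 15.7% in ESCs, 12.3 and 9.62% in ASCs and 95.1 and 97.7% in EpiSCs, a difference of -85.46 points for ASCs against EpiSCs (adjusted p = 2.92e-06).

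The Nesp stretch, where NESP55 transcripts and Nespas-201 start, also set EpiSCs apart from both other groups. It spans chr2:174283501-174287000 with 185 CpG in 7 tested windows and holds the starts of Gnas-210, Gnas-211, Gnas-222, Gnas-214, Gnas-215 and Nespas-201. The level was 2.70 and 1.30% in ESCs (2.0% ± 0.994, SD, n = 2), 5.28 and 2.22% in ASCs (3.75% ± 2.17, SD, n = 2) and 45.4 and 51.0% in EpiSCs (48.2% ± 3.96, SD, n = 2). Libraries of ASCs and ESCs overlapped, and the EpiSC libraries lay far above both. All 7 windows were called higher in EpiSCs, against ESCs (adjusted p from 1.1e-06 to 7.47e-05) as against ASCs (adjusted p from 8.06e-06 to 0.000458). None was called between ASCs and ESCs by the quasi-binomial fit, by Fisher's exact test or by limma on log ratios, and 1 was higher in ASCs at an unadjusted p under 0.05, by 5.92 points (adjusted p = 0.00997), under the 20-point minimum. No window of the stretch reached that minimum, which applied to each of these tests. Over the bases printed for Nesp the level was 2.06 and 0.0% in ESCs, 9.09 and 1.45% in ASCs and 30.6 and 20% in EpiSCs. The window at chr2:174283501-174284000, inside an intron of Nespas, had the largest difference between EpiSCs and ESCs of the tested windows of the locus, at 82.87 points. Its level was 0.0 and 5.06% in ESCs, 9.68 and 12.1% in ASCs and 79.3 and 91.5% in EpiSCs. The adjusted p of EpiSCs against ESCs was 1.93e-06.

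In the stretch from the start of Nespas to Gnasxl the ASC level lay between those of ESCs and EpiSCs. It spans chr2:174294501-174301000 with 343 CpG in 13 windows, 12 of them tested, and holds the starts of Nespas-202, Nespas-203 and the 7 Gnasxl transcripts that share a base (Gnas-201, Gnas-203, Gnas-204, Gnas-209, Gnas-220, Gnas-223 and Gnas-224). The level was 0.739 and 1.43% in ESCs (1.08% ± 0.486, SD, n = 2), 26.3 and 28.6% in ASCs (27.5% ± 1.64, SD, n = 2) and 47.4 and 42.6% in EpiSCs (45.0% ± 3.40, SD, n = 2). The groups did not overlap. Of the 12 tested windows, ASCs were called above ESCs in 9, EpiSCs above ESCs in 12 and ASCs under EpiSCs in 4. Over the 12 windows the adjusted p was at most 0.00513 for ASCs against ESCs and 0.000238 for EpiSCs against ESCs. At the Gnasxl start window (chr2:174297501-174298000) the ASC level was 15.5 and 38.6%, and its call against ESCs, 23.68 points, was lost without ASC replicate 2 (12.13 points), ESC replicate 1 or either EpiSC replicate. Its call against EpiSCs, -29.76 points, was lost without ASC replicate 1 or either EpiSC replicate, and that of the window at chr2:174300501-174301000 without EpiSC replicate 1 (-19.74 points). Over the bases printed for Nespas the level was 0.0 and 0.0% in ESCs, 22.4 and 21.9% in ASCs and 62.5 and 13.5% in EpiSCs, on 32 to 51 observations, so that ASCs and EpiSCs overlapped there. Of the 33 tested windows of the locus 8 were intermediate, all 8 in this stretch, beside 1.47% of all tested windows (2552 of 173282). The count was 2 with a range of 30 to 70% (0.358% of all tested windows) and 5 on a grid shifted by 250 bp (1.44%). The ASC replicates differed within the stretch more than its total shows, since 3 of the 12 windows had ASC levels at least 20 points apart, against 3.55% of all tested windows. At chr2:174294501-174295000 the ASC levels were 32.5 and 61.4%, and in the adjoining window, which holds the Nespas starts, they were 54.7 and 28.2%. Replicate 2 was the higher in the first and replicate 1 in the second, and the EpiSC levels were 30 and 38.5% in the first and 36.9 and 51.7% in the other. In the first the ASC mean was 12.70 points above that of EpiSCs (adjusted p = 0.214), while it was lower in the other 11 tested windows. Without ASC replicate 1 the first window was called 27.13 points higher in ASCs than in EpiSCs (adjusted p = 0.0282).

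**Figure D1:**
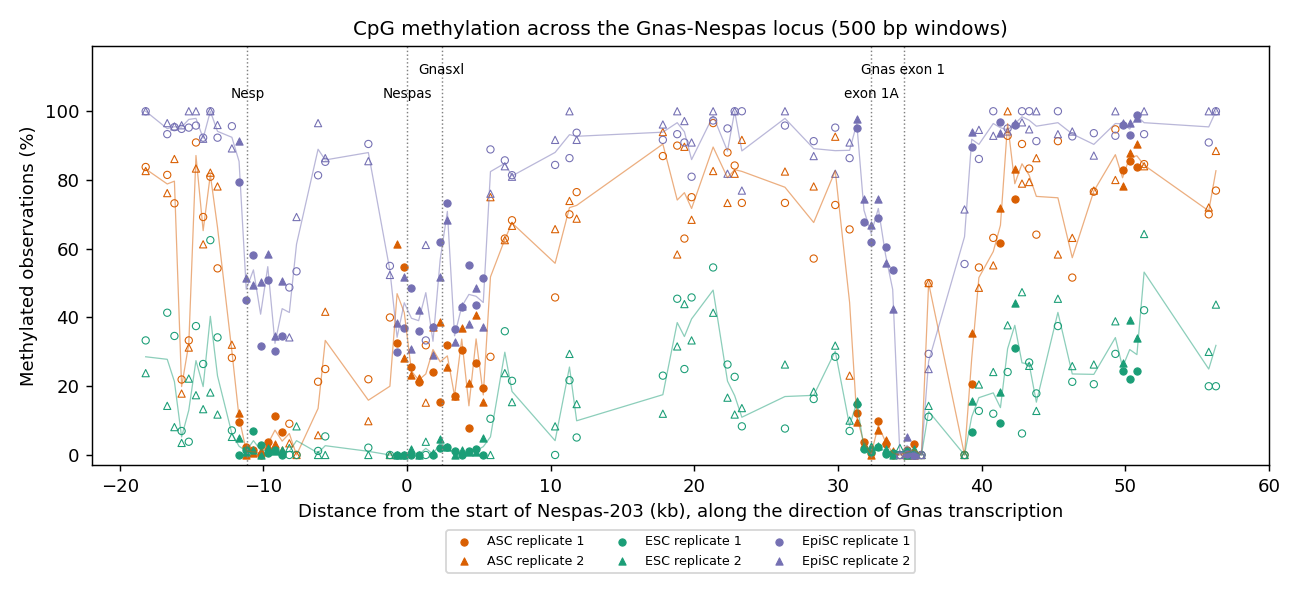
Methylated observations (%) in 500 bp windows of the Gnas-Nespas locus, against distance in kb from the start of Nespas-203. Circles and triangles are replicates 1 and 2 of ASCs (orange), ESCs (green) and EpiSCs (purple), filled where the window was tested and open where it held 10 to 39 observations in the shallowest library, lines join group means and dotted lines mark starts. ASC points lie with ESC points near 0 at Nesp and exon 1A and between ESC and EpiSC points at the Gnasxl start, while 1 ASC point lies above both EpiSC points in each of the 2 windows at Nespas (61.4 and 54.7%), and all 6 libraries lie under 6% in the tested windows at Gnas exon 1.

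The start of the major Gnas transcript, Gnas-207, lies 2.24 kb beyond Gnas-202 and 0.51 kb beyond the end of the exon 1A stretch, and its levels were near 0 in every group. In the 2 tested windows from this start (chr2:174330001-174331000) the level was 0.966 and 0.403% in ESCs, 2.20 and 0.0% in ASCs and 0.208 and 3.62% in EpiSCs. The groups overlapped. Neither window was called in any of the 3 comparisons, with 0 of 230 observations methylated in ASC replicate 2. The exon 1A stretch and Gnas exon 1 were thus 64.6 and 1.91% methylated on average in EpiSCs.

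Away from these starts the levels were nearer to the medians over all tested windows, which were 15.1% in ESCs, 60.4% in ASCs and 92.7% in EpiSCs. From the end of Gnasxl to exon 1A (chr2:174301001-174326500) the level was 20.9 and 19.9% in ESCs, 67.7 and 70.4% in ASCs and 87.8 and 88.4% in EpiSCs. Beyond Gnas exon 1 a pair of runs in the gene body, at chr2:174336501-174338000 and chr2:174345001-174346500, stood at 72.1 to 85.0% in ASCs, 19.7 to 31.2% in ESCs and 94.8 to 97.1% in EpiSCs. The last of these held the window with the largest difference between ASCs and ESCs of the tested windows of the locus, at chr2:174346001-174346500, with 24.3 and 34.1% in ESCs, 83.6 and 90.4% in ASCs and 99 and 98.1% in EpiSCs. The difference was 57.84 points (adjusted p = 5.16e-05). The 7.5 kb between the Nesp and the Nespas stretches differed from both, with 1.03 and 2.44% in ESCs, 20.6 and 10.5% in ASCs and 73.0 and 74.7% in EpiSCs. EpiSCs there were more methylated than in either neighbouring stretch, and no window of these 7.5 kb was tested.

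At Grb10 an internal stretch lay around the starts of Grb10-207 and Grb10-209, 11.08 kb into the gene from the main start of Grb10-201. It spans chr11:12025501-12027000, holds 152 CpG in 3 tested windows and includes the tandem repeat printed above. The level was 2.54 and 0.657% in ESCs (1.60% ± 1.33, SD, n = 2), 21.0 and 18.1% in ASCs (19.5% ± 2.09, SD, n = 2) and 56.2 and 52.9% in EpiSCs (54.5% ± 2.37, SD, n = 2). As in the sum over the whole Nespas-Gnasxl stretch, the groups did not overlap and ASCs lay between the others. Over the 300 printed bases of the repeat it was 0.0 and 1.08% in ESCs, 13.4 and 8.71% in ASCs and 35.7 and 32.1% in EpiSCs, in the same order. ASCs were called above ESCs in 2 of the 3 windows, EpiSCs above ESCs in all 3 (adjusted p from 1.57e-06 to 2.68e-06) and ASCs under EpiSCs in all 3 (adjusted p from 0.000148 to 0.000767). One of them was intermediate, beside 1.47% of all tested windows. At the locus the count was 0 with a range of 30 to 70% (0.358% of all) and 2 on the shifted grid (1.44%). The window at chr11:12026501-12027000, at the start of Grb10-207, had the largest difference between ASCs and EpiSCs of the tested windows of the locus, -49.00 points (adjusted p = 0.000354). Its level was 0.922 and 2.91% in ESCs, 31.2 and 13.9% in ASCs and 78.8 and 64.3% in EpiSCs. Its call between ASCs and ESCs, 20.61 points, was lost without ASC replicate 1 (11.95 points) and without ESC replicate 1 (19.62 points). Between ASCs and EpiSCs the call of the first window was lost without EpiSC replicate 1 (adjusted p = 0.0608) and with limma on log ratios (adjusted p = 0.0656), and that of the window at Grb10-209 without EpiSC replicate 2 (-19.78 points).

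The main Grb10 start was close to unmethylated outside EpiSCs. Over chr11:12036501-12038000 the level was 0.538 and 0.284% in ESCs, 0.746 and 0.824% in ASCs and 24.7 and 12% in EpiSCs. The EpiSC libraries lay above the rest but apart from each other. In the window that holds the start of Grb10-201 they stood at 38 and 4.67%, a gap of 33.3 points. That window was called 20.87 points higher in EpiSCs than in ESCs, a call that was lost without EpiSC replicate 1 (4.21 points) and without either ESC replicate (21.33 and 20.41 points). The windows on either side were 18.05 and 15.65 points higher in EpiSCs than in ESCs (quasi-binomial fit, adjusted p = 1.14e-05 and 3.89e-06). For ASCs against EpiSCs they differed by -17.88 and -15.95 points (adjusted p = 5.18e-05 and 7.01e-05). Both windows were under the 20-point minimum for a call.

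**Figure D2:**
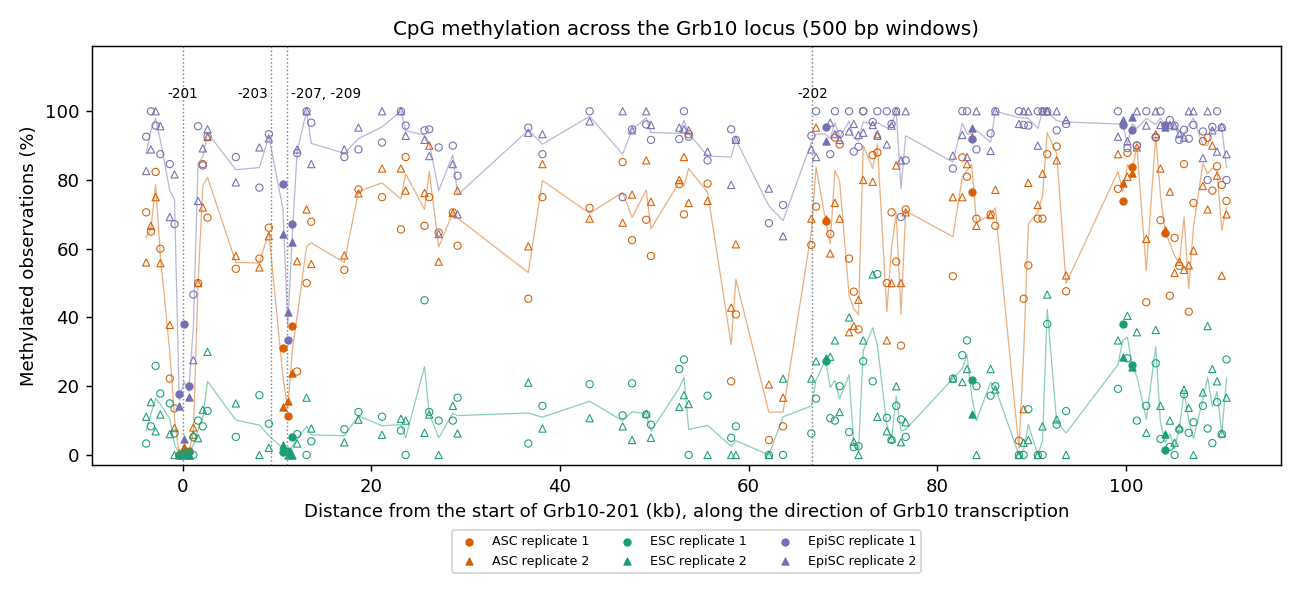
Methylated observations (%) in 500 bp windows of the Grb10 locus, against distance in kb from the start of Grb10-201 in the direction of transcription. Circles and triangles are replicates 1 and 2 of ASCs (orange), ESCs (green) and EpiSCs (purple), filled where the window was tested, open where it held 10 to 39 observations in the shallowest library, and lines join group means. At Grb10-201 the ASC and ESC points lie near 0 and the EpiSC points between 4.67 and 38% in the tested windows, and at Grb10-207 and Grb10-209 the ASC points lie between those of ESCs and EpiSCs.

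The gene body of Grb10 was also near the medians over all tested windows. Between the run at its 3′ end and the internal stretch (chr11:11938001-12025500) the level was 13.7 and 12.9% in ESCs, 63.1 and 66.4% in ASCs and 91.9 and 90.9% in EpiSCs. The run itself (chr11:11936501-11938000) stood at 30.8 and 30.3% in ESCs, 82.2 and 80.9% in ASCs and 94.0 and 96.8% in EpiSCs. Of the tested windows, the largest difference between ASCs and ESCs was in an intron at chr11:11953501-11954000, 67.57 points (adjusted p = 0.000103), with 76.6 and 92.5% in ASCs against 21.9 and 12% in ESCs. The largest between EpiSCs and ESCs among them was at chr11:11933001-11933500, 92.00 points (adjusted p = 6.5e-07), with 96.0 and 95.5% in EpiSCs against 1.39 and 6.06% in ESCs.

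Over all tested windows of the loci, ASCs were called above ESCs in 21 of 44 (14 of 33 at Gnas-Nespas and 7 of 11 at Grb10), and in 68.4% of all tested windows. For EpiSCs against ESCs 40 of 44 were higher (31 and 9), beside 81.2% of all windows. For ASCs against EpiSCs 25 of 44 were lower in ASCs (19 and 6), beside 51.8% of all windows. No window of either locus was called in the opposite direction by the quasi-binomial fit, Fisher's exact test or limma on log ratios, where the whole-genome shares were 0.000577, 0.00866 and 0.287%. At an unadjusted p under 0.05 the count was 1, for ASCs above EpiSCs at Gnas-Nespas. The median difference between ASCs and ESCs was 15.04 points at Gnas-Nespas and 27.97 at Grb10, beside 39.81 over all tested windows. For EpiSCs against ESCs it was 47.82 and 63.38 points beside 68.91, and for ASCs against EpiSCs -28.37 and -20.18 beside -20.74. The tested windows held a median of 26 CpG at Gnas-Nespas and 29 at Grb10, and all tested windows were not matched to them for CpG density. With a minimum of 100 observations ASCs were called above ESCs in 4 of 13 and 2 of 6 windows, above the 17.1% of all windows. The relation to the genome thus depends on that minimum. Windows with ASC and ESC means under 10% and an EpiSC mean of 40 to 80% numbered 10 at Gnas-Nespas, 5 in the Nesp stretch and 5 in that of exon 1A, and 0 at Grb10. They made up 1.97% of all tested windows. These limits were not planned and match the levels of the Nesp and exon 1A stretches, so the counts are a description.

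The order of the 4 stretches differed between the cell types. In ASCs exon 1A and Nesp overlapped at the bottom, Grb10 came next and the Nespas-Gnasxl stretch was highest, with no overlap of the library values between these 3 levels. In EpiSCs the Nespas-Gnasxl and Nesp stretches overlapped, Grb10 was above them and exon 1A was highest. In ESCs all 4 lay between 0.657 and 2.70%. These are sums over stretches of unlike length, and means of single tested windows overlapped between stretches. In ASCs they ranged from 13.55 to 30.64% at Grb10 and from 14.3 to 46.93% in the Nespas-Gnasxl stretch. In EpiSCs they ranged from 37.52 to 71.53% at Grb10 and from 48.13 to 96.42% at exon 1A. Reads per CpG in these stretches ranged from 4.12 to 6.29 over the libraries, and the part of depth in the order was not tested.

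At single starts, measured in 500 bp centred on each, the Gnas transcripts fell into 5 clusters with tested members. At the Nesp start shared by Gnas-210, Gnas-211 and Gnas-222 the level was 1.52 and 0.926% in ESCs, 4.55 and 0.0% in ASCs and 47.3 and 51.8% in EpiSCs. At the Gnasxl start it was 0.0 and 5.49% in ESCs, 16 and 18.5% in ASCs and 71.1 and 70.6% in EpiSCs. At Gnas-202, an exon 1A start, it was 0.837 and 2.52% in ESCs, 0.524 and 0.0% in ASCs and 62.6 and 67.3% in EpiSCs. Of these the Gnasxl start alone had both ASC libraries above both ESC libraries. Its difference of 14.51 points (adjusted p = 0.0426) was under the minimum for a call, and over 1000 bp centred on the same base it was 23.10 points and called (adjusted p = 0.00055). The 6 exon 1A starts share most of their CpG and are no independent points. Their levels ranged from 0.0 to 0.637% in ASCs and from 57.1 to 71.8% in EpiSCs. At the 4 starts of Gnas exon 1 no library was above 7.38%, the level of EpiSC replicate 2 at Gnas-207. Over the remaining Nesp starts, Gnas-215 and Gnas-214, ASC levels were at most 1.08% and EpiSC levels ranged from 31.6 to 65.2%. Both were called lower in ASCs than in EpiSCs, and these calls were lost without either ASC replicate (adjusted p from 0.0774 to 0.099). The call of Gnas-214 between EpiSCs and ESCs was lost without ESC replicate 2 (adjusted p = 0.0587).

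Nespas had starts on both sides of this split. Nespas-201 starts within the Nesp stretch and stood at 3.90 and 0.0% in ESCs, 0.0 and 0.0% in ASCs and 41.4 and 71.3% in EpiSCs. It was called 54.42 points higher in EpiSCs than in ESCs (adjusted p = 0.00647) and -56.37 points for ASCs against EpiSCs (adjusted p = 0.0106), and the first call was lost without either ESC replicate and the second without either ASC replicate. Nespas-203, which starts 11.12 kb from Gnas-210 and 2.42 kb from Gnasxl, stood at 0.0 and 0.870% in ESCs, 60.6 and 23.5% in ASCs and 38.5 and 50.0% in EpiSCs. The ASC libraries lay on either side of the EpiSC libraries, 1 above and 1 under both. Nespas-203 was called 41.65 points higher in ASCs than in ESCs (adjusted p = 0.0401) and differed by -2.15 points between ASCs and EpiSCs (adjusted p = 0.929). Nespas-202, whose start lies beside it and shares its reads, stood at 59.8 and 23.4% in ASCs and was called higher than in ESCs as well (41.17 points, adjusted p = 0.0415). Both calls against ESCs were lost when any library other than ASC replicate 2 was left out, with adjusted p-values from 0.0597 to 0.232. Their calls between EpiSCs and ESCs (43.80 and 42.36 points) were lost without any 1 of the 4 libraries of those groups (adjusted p from 0.0998 to 0.141). The calls in the window fit around the same starts held in each of these fits.

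Grb10 had tested starts of 3 kinds. The main start, Grb10-201, stood at 0.685 and 0.909% in ESCs, 0.0 and 3.09% in ASCs and 24.8 and 4.56% in EpiSCs, and was called in no comparison. Without EpiSC replicate 2 it was called 23.99 points higher in EpiSCs than in ESCs (adjusted p = 0.0156) and the difference of ASCs from EpiSCs, -23.25 points, was called as well (adjusted p = 0.0335). At the internal stretch, Grb10-209 stood at 0.617 and 0.282% in ESCs, 13.7 and 14.5% in ASCs and 34.3 and 41.2% in EpiSCs. Grb10-207 stood at 0.429 and 2.16% in ESCs, 29.3 and 10.3% in ASCs and 78.2 and 59.5% in EpiSCs. In both the ASC libraries lay between the other groups, with differences from ESCs of 13.68 points (adjusted p = 0.00285) and 18.52 points (adjusted p = 0.0772) that were not called. The call of Grb10-207 between ASCs and EpiSCs, -49.02 points (adjusted p = 0.0223), was lost when any library except ASC replicate 1 was left out (adjusted p from 0.0816 to 0.155). Grb10-203, between the main start and the stretch, had the levels of a gene body at 7.14 and 3.28% in ESCs, 59.5 and 62.5% in ASCs and 95.5 and 94.1% in EpiSCs. It was called in all 3 comparisons (adjusted p of 0.00251, 9.97e-05 and 0.00222). The remaining Grb10 starts had too few observations for a test. Grb10-202, Grb10-204 and Grb10-208 had ASC levels of 64.3 to 88.2%, Grb10-206 had 35.5 and 32.4% and Grb10-205 had no observation. Gnas-216 stood at 51.9 and 65.6% in ASCs without a test, and Gnas-213 held fewer than 10 observations in every library.

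**Figure D3:**
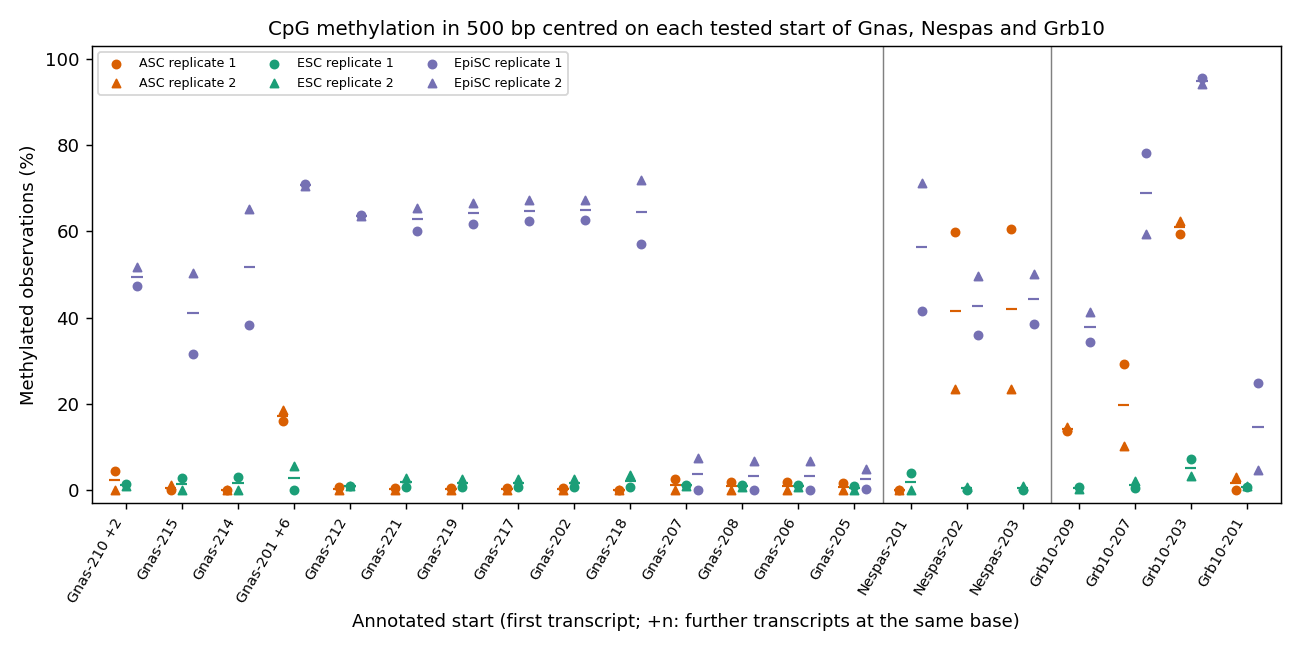
Methylated observations (%) in 500 bp centred on each of the 21 tested starts of Gnas, Nespas and Grb10, in genome order within a gene. Circles and triangles are replicates 1 and 2 of ASCs (orange), ESCs (green) and EpiSCs (purple) and short bars are group means. ASC points are near 0 at all Gnas starts but Gnasxl (16 and 18.5%), and the ASC replicates lie far apart at Nespas-202 and Nespas-203.

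Among the 21 tested starts, ASCs were called above ESCs at 3, beside 15.5% of all tested starts. They were Nespas-202, Nespas-203 and Grb10-203. The calls of Nespas-202 and Nespas-203 were lost when any library other than ASC replicate 2 was left out, and calls over all tested starts were then fewer too. Of the Gnas starts, 0 of 14 were called by the quasi-binomial fit, Fisher's exact test or limma on log ratios, with 1, the Gnasxl start, at an unadjusted p under 0.05 (adjusted p = 0.0426, 14.51 points, under the minimum). No tested Gnas start reached the minimum, which applied to each of these tests. Higher in EpiSCs than in ESCs were 16 (10 of 14 for Gnas, 3 of 3 for Nespas and 3 of 4 for Grb10), beside 27.2% of all starts. Lower in ASCs than in EpiSCs were 14 (10, 1 and 3), beside 20.7%. In both counts the Gnas starts were those of exon 1A, Nesp and Gnasxl. Starts within a cluster overlap, and Nespas-201 overlaps Nesp starts of Gnas. These counts and the medians that follow therefore hold some reads several times and are no counts of independent regions. The median differences of the 21 starts were -0.02, 50.23 and -47.25 points for ASCs against ESCs, EpiSCs against ESCs and ASCs against EpiSCs, beside 0.21, 0.84 and -0.84 points over all tested starts. No start of the 3 genes was called lower in ASCs or EpiSCs than in ESCs, or higher in ASCs than in EpiSCs, by any of the 3 tools, nor was one at an unadjusted p under 0.05. Over all tested starts these shares were 0.0035, 0.00175 and 0.0945%.

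The same measurement at the starts of 14 other genes with an imprint at or near a start gave a wider range in ASCs. Of these genes 13 had a tested start, with 46 starts in all. ASCs were called above ESCs at 34 of the 46, EpiSCs above ESCs at 44 and ASCs under EpiSCs at 21. Starts of the same gene can lie close enough to share reads, and by gene the counts were 10, 13 and 7 of 13. The median level over the 46 starts, to which some genes gave many, was 0.609% in ESCs, 33.8% in ASCs and 55.8% in EpiSCs. Intermediate were 15 starts of 7 genes. The exon 1A and Nesp starts thus lay at the low end of the list in ASCs, where Mcts2 (0.0 and 0.0% in ASCs, 44.1 and 43.9% in EpiSCs), Zrsr1 and Impact also stood. The tested Impact starts ranged from 0.0 to 12.3% in ASCs and from 28.1 to 47.1% in EpiSCs. The ASC means of Nespas-202 and Nespas-203 lay above the median of the list. At both, ASC replicate 1 lay above that median (59.8 and 60.6%) and replicate 2 under it (23.4 and 23.5%). At 12 neighbour genes of the 2 loci, 9 had tested starts, 37 in all, and 3, 7 and 5 of them were called in the same comparisons, with 0 intermediate. The median differences there were -0.46, 1.19 and -1.05 points. Among these neighbours, Npepl1-201 and Ikzf1-205 had ASC levels of at most 1.16% beside EpiSC levels from 26.4 to 52.3%. These lists are set beside the members as a description, and the difference between them was not tested.

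**Figure D4:**
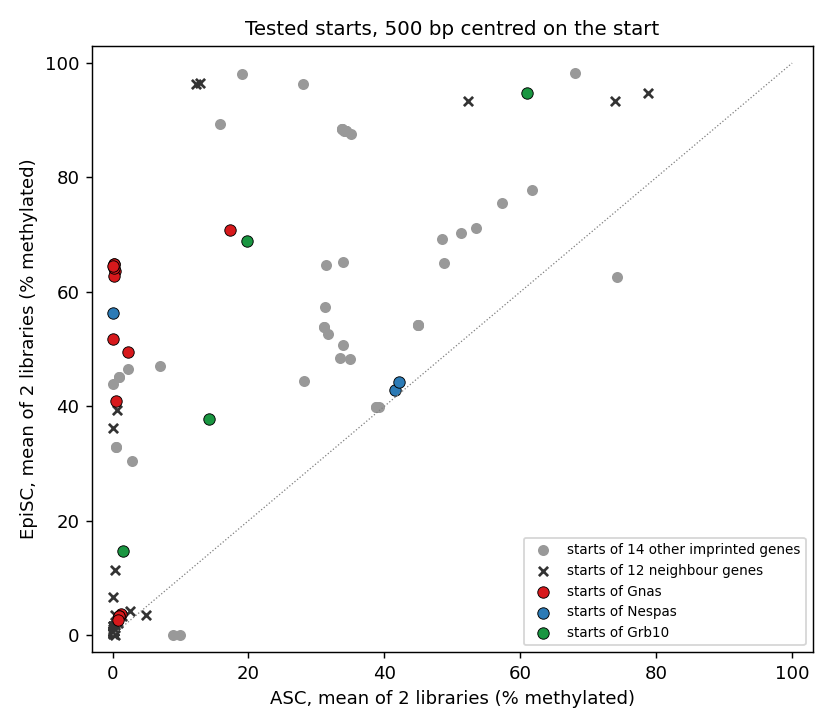
Mean level of 2 ASC libraries (horizontal, %) against that of 2 EpiSC libraries (vertical, %) at tested starts of Gnas (red), Nespas (blue), Grb10 (green), the imprinted list (grey circles) and neighbour genes (crosses), with equality as a dotted line. The exon 1A and Nesp starts line up at the left edge, with ASC means under 3% and EpiSC means from 41.0 to 65.0%, and Nespas-202 and Nespas-203 lie next to the line of equality.

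The hexamer TGCCGC, counted on both strands, was found in 8 of the 13 windows of the Nespas-Gnasxl stretch (14 copies), 3 of the 6 of exon 1A (4 copies), 1 of the 7 of Nesp (2 copies) and 1 of the 3 at Grb10 (4 copies). In all tested windows 17.4% held it, and in the intermediate windows of the genome 15.3% did. The hexamer holds a CpG, and the CpG density of these windows was not compared with that of all tested windows. The letters alone do not show whether ZFP57 binds there.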

How the data were processed

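The study prepared its libraries by adaptor tagging after bisulfite treatment (PBAT) with a lambda spike-in, whose reads were not analysed here. The authors trimmed reads with Trim Galore, aligned them to GRCm38 with Bismark 0.16.3 in PBAT mode, removed duplicates and called CpG sites with MethPipe (version not given in the sources used here). Per CpG and library the deposited tables hold the methylated fraction of reads and, in another column, the read count, neither normalized nor pooled over replicates. Fraction times count lay within 0.000115 of a whole number, which gave methylated and unmethylated counts. All sites fell on CpG of GRCm38, and the coordinates printed here, unlike those of the deposited tables, count from 1. Replicates were compared before averaging, and their chi-square statistic per site was 1.10 to 1.13, so none was a copy of another.

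Counts were summed in 500 bp windows and in 500 bp centred on each GENCODE M21 start. Levels were compared between groups with a quasi-binomial logistic fit over all 6 libraries, with a group term and a dispersion moderated by limma 3.58.1 (squeezeVar, R 4.3.3), a two-sided F test and Benjamini-Hochberg adjustment over 173282 windows or 57128 starts. A call also needed a difference of 20 points. Prior degrees of freedom were 5.97 for windows and 1.99 for starts, so the start fit borrows less. The fit was also run on 40000 simulated windows, with a change added between ASCs and ESCs in a few. On the p-value alone it called 36.0% of 100 windows given 20 points and 96.0% of 100 given 40 points. Prior degrees of freedom were 47.96 there and few windows were changed, so these shares do not carry over to the data. Observations on 1 read are not independent, and Wilson intervals cover counting error only. The p-values rest on the spread between the 2 libraries of each group, pooled over all groups and moderated over all regions. That spread may be technical.

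Named were, by rule, each start cluster of the 3 genes, each run of called or intermediate windows and the largest difference of the tested windows per locus and comparison. The imprinted list was Mest, Peg3, Plagl1, Snrpn, Peg10, Kcnq1ot1, Nnat, Mcts2, Zrsr1, Nap1l5, Inpp5f, Impact, Airn and Peg13, and the neighbours were Zfp831, Edn3, Npepl1, Nelfcd, Ctsz, Tubb1, Atp5e, Prelid3b, Ddc, Cobl, Fignl1 and Ikzf1. The members and lists were chosen with earlier results of these data known. Alternatives were other minimums of observations (20 and 100), other minimum differences, thinning to the shallowest library, Fisher's exact test, limma on log ratios (M values), a dispersion of at least 1, a replicate block, a grid shifted by 250 bp, 1000 bp at starts, 30 to 70% as the intermediate range and leaving out each library.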

Additional observations from a re-analysis of the deposited data

How the results depend on the processing

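No called start or window changed direction under any alternative run. Of 195 differences at single starts and windows, 29 that were not called changed sign in at least 1 alternative, and those of ASCs against EpiSCs at Nespas-202, Nespas-203 and the window that holds them went from -1.19, -2.15 and -2.84 points to 17.03, 16.41 and 10.41 without ASC replicate 2, still not called. The minimum of observations sets how many windows are tested, 33 at Gnas-Nespas and 11 at Grb10 as reported, 57 and 39 with a minimum of 20 and 13 and 6 with 100. Windows higher in ASCs than in ESCs, 14 and 7 beside 68.4% of all windows, became 33 and 32 with 20 (83.4% of all), 4 and 2 with 100 (17.1%), 7 at Gnas-Nespas with a difference of at least 40 points (49.7%) and 4 of 8 at Grb10 after thinning to the shallowest library (64.2%). Windows higher in EpiSCs than in ESCs, 31 and 9 beside 81.2%, became 55 and 37 with 20 (93.2%) and 12 and 4 with 100 (32%). Windows lower in ASCs than in EpiSCs, 19 and 6 beside 51.8%, became 34 and 28 with 20 (52.8%), 7 and 3 with 100 (26.5%), and at Grb10 10 with no minimum difference (75.4%) and 1 with at least 40 points (21.3%). Starts higher in ASCs than in ESCs, 3 of 21 beside 15.5% of all starts, became 5 of 23 with 20 (29% of all), 0 of 15 with 100 (2.06%), 5 of 21 with no minimum difference (17.2%) and 7 of 24 over 1000 bp (31.1%). Intermediate windows, 8 and 1 beside 1.47% of all windows, became 2 and 0 at 30 to 70% (0.358%), and 5 and 2 on the shifted grid (1.44%).

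With each library left out in turn, where the lone sample of a group is assumed to vary like the other groups, windows higher in ASCs than in ESCs ranged from 13 to 15 and from 6 to 7, and windows lower in ASCs than in EpiSCs from 18 to 20 and from 5 to 6. Windows higher in EpiSCs than in ESCs were 31 throughout and 8 to 9. Windows higher in ASCs than in EpiSCs at Gnas-Nespas ranged from 0 to 1, with 1 without ASC replicate 1. At the starts, calls of the members were lost in some of these fits in each of the 3 comparisons. Over all tested starts, calls also became fewer in each of these fits. Replicate numbers did not pair the libraries, with correlations of deviations from -0.00437 to -0.00105. With a replicate block the window counts were the same. Starts higher in ASCs than in ESCs went from 3 to 1 (over all starts from 15.5 to 13%) and those higher in EpiSCs from 16 to 14 (from 27.2 to 27%). Nespas-202 and Nespas-203 were then not called for ASCs against ESCs (adjusted p = 0.136 and 0.129) or EpiSCs against ESCs (adjusted p = 0.0808 and 0.0722). Fisher's exact test and limma on log ratios gave the same counts except 5 in place of 6 Grb10 windows lower in ASCs than in EpiSCs with limma. Most windows of both loci (345 of 389) were too shallow to test.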

Other observations

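In some untested windows inside introns of Grb10 the ASC levels were far under that of the gene body, and 2 examples are given, chosen after their values were seen. At chr11:11948501-11949000, 88.65 kb into the gene from the Grb10-201 start, the level was 0.0 and 0.0% in ESCs, 4.17 and 0.0% in ASCs and 100.0 and 96.3% in EpiSCs, on 18 to 34 observations a library. At chr11:11975001-11975500, 62.15 kb into the gene, it was 0.0 and 0.0% in ESCs, 4.35 and 20.5% in ASCs and 67.4 and 77.5% in EpiSCs, on 23 to 43 observations. Neither window holds an annotated start of Grb10, and both lie under the minimum for a test.

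At chr2:174334501-174335000, the next tested window beyond those of Gnas exon 1, the ASC libraries stood at 20.7 and 35.4%, ESCs at 6.67 and 15.6% and EpiSCs at 89.7 and 94.0%. This window was called lower in ASCs than in EpiSCs, with a difference of -63.80 points. Its difference between ASCs and ESCs, 16.94 points (adjusted p = 0.0352), was called without ASC replicate 1 (24.31 points) and without ESC replicate 2 (21.39 points).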
